A study of Mus musculus with 20 samples.

Results

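Neuronal and non-neuronal nuclei of the mouse hypothalamus were compared at weaning, postnatal day 21 (P21), by the DNA methylation of their CCCGGG sites. The groups were formed from the sample labels alone, as the 5 libraries of P21 neurons against the 5 libraries of P21 non-neurons, 10 of the 20 libraries of the study. The comparison itself was chosen with earlier results of these data known. The other 10 libraries came from nuclei of the same 2 kinds taken on the day of birth (P0), 5 from neurons and 5 from non-neurons. They entered no test here and are given as values only. All groups were from inbred C57BL/6 males without a genetic change or treatment, and each sample that was sorted joined 2 hypothalami of one age. Nuclei were separated by fluorescence-activated sorting on NeuN, a protein found in the nuclei of most neurons, so the non-neuronal group can hold oligodendrocyte lineage cells, astrocytes, microglia, endothelium, ependyma and any neurons that lack NeuN. The labels call the 5 libraries of a group biological replicates.

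Methylation of cytosines in CG pairs is copied at cell division and is set and removed by DNA methyltransferases and TET enzymes. In brain it differs between neurons and glia and is rearranged in the weeks after birth. Methylation near a gene start often goes with a silent gene, but no RNA was measured here and no statement on gene activity can be drawn from these values. In the assay (methylation-specific amplification with sequencing, MSA-seq) DNA is first cut by SmaI, which cuts CCCGGG only where it is unmethylated, and then by XmaI, which also cuts the methylated sites. Adaptors join to XmaI ends, so an interval between neighbouring CCCGGG sites is amplified when both of its end sites are methylated. More reads of an interval therefore stand for more methylation at its ends, as a relative measure that does not give the percent of methylated DNA. Levels are given as CPM, read counts scaled to a common library size with TMM factors over all 20 libraries. An interval was called when the adjusted p of edgeR's quasi-likelihood test, fitted to the 10 P21 libraries, was under 0.05.

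The table names intervals by mm9 position and holds no gene names. Genes were attached where a RefSeq promoter holds a CCCGGG site and the spacing of such sites along a chromosome repeats that of the table's cut sites. This placed the starts of 3005 genes, and an interval is said to lie at a start when it reaches into the stretch from 1000 bp before to 500 bp after it. The promoters of 5 genes are printed to show the sites that carry the results below, the first 3 from genes whose interval was higher in neurons and the last 2 from genes whose interval was lower. Each line is the RefSeq (GRCm38.p6) sequence of the 250 bases before the start, 5′ to 3′ on the gene's strand, with the CCCGGG recognition sequence in capitals.
Chst3: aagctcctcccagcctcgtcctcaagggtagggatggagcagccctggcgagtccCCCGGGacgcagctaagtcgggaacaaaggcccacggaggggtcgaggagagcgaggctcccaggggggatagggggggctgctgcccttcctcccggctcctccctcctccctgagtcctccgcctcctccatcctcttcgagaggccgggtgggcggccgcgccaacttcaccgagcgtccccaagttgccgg
Phyhd1: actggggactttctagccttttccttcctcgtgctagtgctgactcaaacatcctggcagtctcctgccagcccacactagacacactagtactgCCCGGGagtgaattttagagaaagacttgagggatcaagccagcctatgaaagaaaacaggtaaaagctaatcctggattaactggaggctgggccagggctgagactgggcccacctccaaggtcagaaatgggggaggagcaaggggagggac
Bmp4: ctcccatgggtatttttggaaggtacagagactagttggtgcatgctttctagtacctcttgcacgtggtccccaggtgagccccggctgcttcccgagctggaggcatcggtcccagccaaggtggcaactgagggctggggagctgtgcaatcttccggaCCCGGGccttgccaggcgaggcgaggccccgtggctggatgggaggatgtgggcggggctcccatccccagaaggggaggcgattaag
Diras1: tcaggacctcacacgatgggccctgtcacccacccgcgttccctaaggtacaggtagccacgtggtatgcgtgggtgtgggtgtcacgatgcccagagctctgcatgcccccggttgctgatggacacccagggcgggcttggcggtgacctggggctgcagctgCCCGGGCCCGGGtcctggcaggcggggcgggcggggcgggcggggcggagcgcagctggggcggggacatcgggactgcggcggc
Npy5r: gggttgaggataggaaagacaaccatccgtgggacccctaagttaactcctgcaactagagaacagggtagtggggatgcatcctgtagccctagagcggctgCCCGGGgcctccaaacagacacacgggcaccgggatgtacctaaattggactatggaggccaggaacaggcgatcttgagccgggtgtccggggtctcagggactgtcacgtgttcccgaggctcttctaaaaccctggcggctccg
In GRCm38.p6 these stretches are chr10:60219261-60219510 (minus strand) for Chst3, chr2:30266471-30266720 (plus strand) for Phyhd1, chr14:46390670-46390919 (minus strand) for Bmp4, chr10:81025378-81025627 (minus strand) for Diras1 and chr8:66688095-66688344 (minus strand) for Npy5r. The Diras1 promoter carries 2 adjoining sites and the other 4 carry 1 each. The site begins 195 bp before the Chst3 start, 155 bp before that of Phyhd1, 88 bp before that of Bmp4 and 147 bp before that of Npy5r. The motif CCCGGG reads the same on both strands, and 11.2% of the 32851 RefSeq promoters hold it in the same 250 bases. GC content ran from 53.2% in Phyhd1 to 72.8% in Diras1.

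Between 7810593 and 9998110 reads were counted in the libraries of neurons (mean 8998498 ± 906550, SD, n = 5) and between 6078113 and 7913117 in those of non-neurons (6930551 ± 813683, SD, n = 5). The neuronal libraries were deeper (two-sided exact permutation p = 0.0159). Replicates correlated at r = 0.964 to 0.983 across intervals in 20 pairs, and every pair differed by more than counting error (chi-square per degree of freedom 2.64 to 8.58). The median SD of log2 CPM over the 5 libraries was 0.22 in neurons and 0.26 in non-neurons. No gene that defines a cell type could be used to check the sort, since no RNA was measured.

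The cell types differed in methylation at many intervals, and the larger differences lay mostly on the side of the neurons. Of 25727 intervals with enough reads to be tested, out of 50782 in the table, 9351 were called (36.3%). Of these, 5451 had more reads in neurons (21.2% of those tested) and 3900 had fewer (15.2%). At 2-fold or more, 2602 intervals were higher (10.1%) and 732 were lower (2.85%). At 8-fold or more, 238 were higher and 34 lower, and at 16-fold or more 76 were higher and 14 lower. All 5 neuronal libraries stood above all 5 non-neuronal ones at 17% of the tested intervals and below them at 7.3%. The split depended on scaling. The share of calls that were higher was 58.3% under TMM, 47.0% when libraries were scaled by their totals and 33.0% with upper-quartile factors. The latter scalings moved the median over all tested intervals from -0.06 to -0.13 and -0.24, in that order. Among 2-fold calls the share higher was 78.0%, 71.8% and 62.2%.

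**Figure D1:**
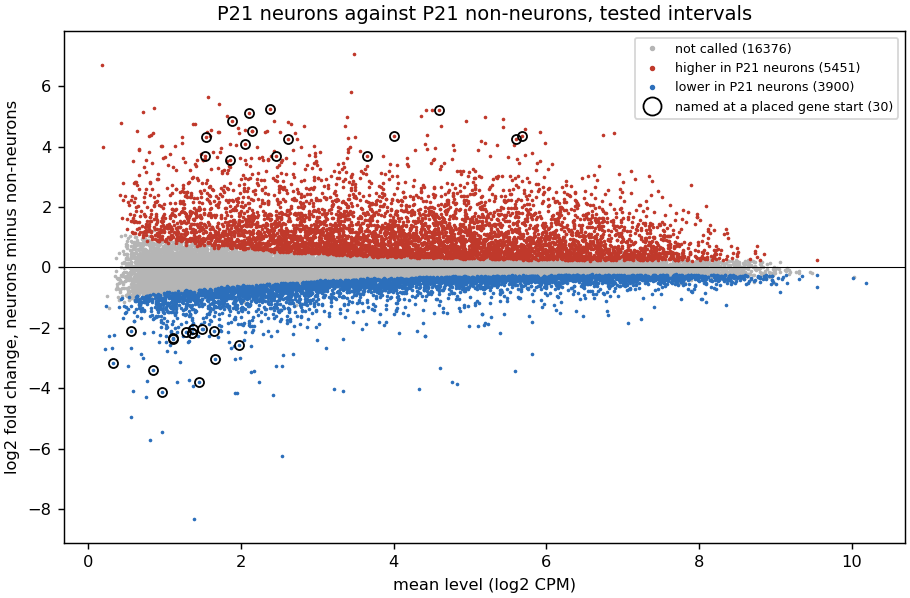
Each point is 1 tested interval, with its mean level (log2 CPM) on the horizontal axis and its log2 fold change, neurons minus non-neurons at P21, on the vertical axis. Red points are the 5451 intervals called higher in neurons, blue points the 3900 called lower and grey points those not called, and circles mark the 30 intervals named at placed gene starts; differences above 16-fold are more frequent on the upper side (76 against 14).

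At gene starts, the intervals with the largest differences included those of the calcium channel gene Itpr2, the keratin gene Krt8 and the sulfotransferase gene Chst3. The genes in the next paragraphs were picked by a rule added after the values had been seen, as the 15 largest fold changes in each direction among called intervals at placed starts whose groups do not overlap. Non-overlap at these genes was therefore fixed by the rule and is no finding. At the start of Itpr2, an inositol trisphosphate receptor that releases calcium from the endoplasmic reticulum and is the main form in astrocytes, the interval chr6:146450213-146450745 (mm9) held 8.20, 9.29, 8.16, 8.75 and 7.99 CPM in neurons. The 5 libraries of non-neurons held 0.83, 0.28, 0, 0 and 0 CPM. The groups lie far apart, and the non-neuronal value rests on 8 reads in all. The log2 fold change was 5.24 (SE 0.41, adjusted p = 2.27e-12 by edgeR). The adjoining interval chr6:146449480-146450213, 532 bp from the start, went the same way at 36.6 ± 4.00 against 2.38 ± 0.97 CPM (SD, n = 5 each).

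Krt8 encodes a keratin of simple epithelia. Its interval chr15:101833492-101834550 had 43.4, 38.5, 45.9, 44.7 and 38.9 CPM in neurons, whereas non-neurons had 0.97, 0.56, 1.60, 1.25 and 1.17 CPM. The lowest neuronal library thus stood well above the highest non-neuronal one, at a log2 fold change of 5.21 (SE 0.18, adjusted p = 1.3e-20 by edgeR). A neighbouring interval at the same start, chr15:101834616-101834908, differed less, with 20.9 ± 3.31 against 7.95 ± 1.32 CPM (SD, n = 5 each; log2 fold change 1.39).

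Phyhd1 encodes an oxygenase of the phytanoyl-CoA dioxygenase family. The interval chr2:30121407-30122086, which ends 155 bp from the gene's start at the site printed above, held 94.2, 71.5, 94.6, 95.8 and 90.5 CPM in neurons. In non-neurons it held 6.53, 3.63, 3.57, 2.77 and 5.26 CPM. Replicate 2 was the lowest neuronal library, and the log2 fold change was 4.34 (SE 0.16, adjusted p = 3.01e-20 by edgeR).

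The genes also included Bmp4 and Nbl1. Bmp4, a secreted ligand of the bone morphogenetic protein (BMP) family that patterns the embryonic nervous system, had 18.9, 17.5, 23.5, 20.2 and 22.7 CPM in neurons at chr14:47009535-47010427. Non-neurons had 1.39, 1.40, 1.35, 2.35 and 1.40 CPM (log2 fold change 3.69 with SE 0.19, adjusted p = 1.03e-16 by edgeR). Nbl1, a secreted antagonist that binds BMPs, had 6.96 ± 1.21 against 0.29 ± 0.44 CPM (SD, n = 5 each) at chr4:138647874-138648498, a log2 fold change of 4.53. Its non-neuronal value rests on 11 reads in all.

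Chst3 and Chst14 encode enzymes that sulfate sugar chains of the extracellular matrix. Chst3, which puts sulfate on the 6 position of chondroitin, had 5.05, 4.38, 5.61, 5.91 and 8.21 CPM in neurons at chr10:59681276-59682198. The non-neuronal libraries had 0, 0.56, 0, 0.42 and 0 CPM, 7 reads in all, and the log2 fold change was 4.87 (SE 0.45, adjusted p = 1.52e-10 by edgeR). Chst14, a dermatan sulfotransferase, had 4.44 ± 0.39 against 0.20 ± 0.14 CPM at chr2:118752476-118752755, and its non-neuronal value rests on 8 reads. Papln, a protein of the extracellular matrix, had 27.4 ± 3.40 against 1.29 ± 0.39 CPM at chr12:85103756-85104450 (SD, n = 5 each in both).

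Tmem63a, a stretch-activated cation channel, had 6.93 ± 0.57 against 0.18 ± 0.17 CPM at chr1:182872073-182872660 (log2 fold change 5.13). Tmc6, a member of the transmembrane channel-like family, had 9.91 ± 1.72 against 0.49 ± 0.17 CPM at chr11:117641536-117642209 (4.27 on the log2 scale). Trak1, an adaptor that couples mitochondria to kinesin motors, had 4.21 ± 0.93 against 0.32 ± 0.36 CPM at chr9:121276083-121278911 (3.68 on the log2 scale). The rule required groups without overlap at all 3 genes. The mitochondrial dioxygenase Hpdl and the death receptor Tnfrsf25 had log2 fold changes of 4.09 and 3.57. The non-neuronal values rest on 7 reads at Tmem63a, 19 at Tmc6, 12 at Trak1, 14 at Hpdl and 17 at Tnfrsf25. At Gm46646, a RefSeq locus known by number, the adjoining intervals chr19:7000511-7001501 and chr19:7001501-7003892 held 84.0 ± 5.53 against 4.33 ± 1.12 and 8.65 ± 0.82 against 0.65 ± 0.24 CPM (SD, n = 5 each).

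In the opposite direction, the intervals with the largest differences at gene starts included those of Hoxa2, Arnt2, Nyap1 and Diras1, all lower in neurons. Reads there were few, at most 6.14 CPM in the mean of either group. Hoxa2, a homeobox factor of the hindbrain and neural crest, had 0, 0.35, 0.41, 0.11 and 0.68 CPM in neurons at chr6:52113790-52114459. Non-neurons had 4.72, 5.17, 4.92, 5.12 and 3.04 CPM (log2 fold change -3.80 with SE 0.40, adjusted p = 1.98e-09 by edgeR). Arnt2, the partner of Sim1 in the formation of hypothalamic neuroendocrine neurons, had 0.38, 0.53, 0.71, 0.22 and 0.34 CPM in neurons and 2.64, 2.52, 1.35, 1.52 and 1.75 CPM in non-neurons at chr7:91557664-91558316. The log2 fold change at Arnt2 was -2.11 (SE 0.40, adjusted p = 7.39e-05 by edgeR).

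Nyap1, an adaptor of phosphoinositide 3-kinase in neurons, had 0.63, 0.26, 0, 0.44 and 0 CPM in neurons against 2.78, 2.38, 2.83, 4.29 and 1.87 CPM in non-neurons at chr5:138180997-138182140 (log2 fold change -3.39 with SE 0.48, adjusted p = 8.01e-07 by edgeR). Diras1, a brain GTPase of the Ras family, had 0.13, 0.53, 0, 0.22 and 0 CPM in neurons against 1.53, 2.10, 1.85, 1.66 and 1.87 CPM in non-neurons at chr10:80488202-80488532. Its value in neurons rests on 9 reads, and that of Nyap1 on 12. Both genes were at or near 0 in some neuronal libraries and above 1 CPM in every non-neuronal one.

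Amigo1, an adhesion protein that accompanies Kv2.1 potassium channels, had 1.06 ± 0.64 CPM in neurons against 6.14 ± 2.10 CPM in non-neurons at chr3:107989641-107989897 (log2 fold change -2.56). Osbp2, an oxysterol-binding protein, had 0.59 ± 0.45 against 5.12 ± 1.87 CPM at chr11:3673495-3674548 (-3.04 on the log2 scale). Rcan2, an inhibitor of calcineurin, had 0.89 ± 0.26 against 3.63 ± 0.56 CPM at chr17:43938848-43939349 (-2.04 on the log2 scale), with SD over 5 libraries each for all 3 genes. The 3 adjoining intervals at Irx3os, a transcript next to the homeobox gene Irx3, were lower together over chr8:94325966-94329352, by -2.12 to -2.32 on the log2 scale. The largest difference of this set was that at Gm12610 (-4.13), where the neuronal value rests on 8 reads. Other starts of the set were those of Epb41l4b (-2.36), Lrrfip2 (-2.09) and Gm46128 (-2.17).

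**Figure D2:**
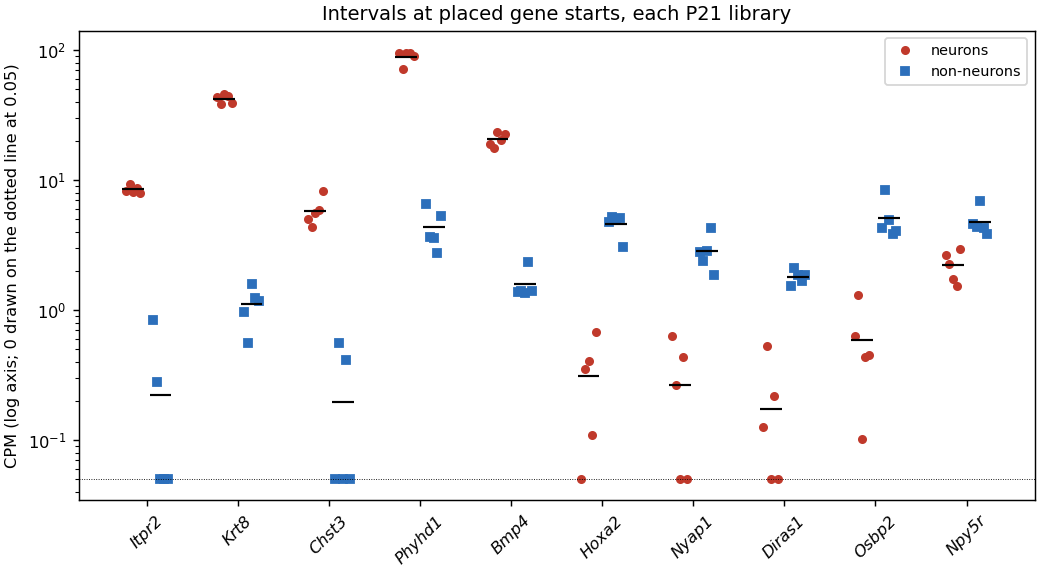
CPM of each P21 library on a log axis at 1 interval each for 10 genes with a placed start; red circles are the 5 neuronal and blue squares the 5 non-neuronal libraries, black bars the group means, and libraries at 0 lie on the dotted line. The first 5 genes, from Itpr2 to Bmp4, have every neuronal library above every non-neuronal one, and the last 5, from Hoxa2 to Npy5r, have every neuronal library below. For all but Npy5r the rule that picked the genes required this.

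Calls at placed starts were set beside those elsewhere, as shares without a test. Of 981 tested intervals at a placed start, 26.6% were higher and 13.4% lower in neurons, and 171 were at least 2-fold higher (17.4%) and 55 at least 2-fold lower (5.61%). Of the 15467 intervals more than 100 kb from any placed start, 19.5% were higher and 14.8% lower, and 8.83% and 2.88% passed 2-fold. Most placed promoters had no interval with enough reads, 2424 of 3301, and these had a median of 29 CpG per 300 bases, against 15 in the 236 promoters with an interval called higher, 25 in the 130 with one called lower and 22 in the 508 with tested intervals and no call. Median GC content was 68.7%, 62.3%, 67% and 63.3% in these 4 classes. Another 3 promoters had calls in both directions. Promoters without a CCCGGG site in this window could not be placed, so these values describe the 13.5% of RefSeq promoters that hold one, and of these the part whose site was matched.

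Lists of genes for the cell types and systems of the hypothalamus were then read. They had been drawn up with earlier results of these data known, and some members had been picked for those results, so their direction is no independent evidence. Of 489 genes in 16 lists, 72 had a placed start, and 37 of these had no tested interval within 10 kb. Within 10 kb of the others lay 68 tested intervals, of which 23 were higher and 13 lower in neurons, with a median log2 fold change of 0.09. Over all tested intervals 21.2% were higher and 15.2% lower, with a median of -0.06.

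The list of Wnt and hedgehog genes held 13 of the 23 higher intervals. Its placed starts were those of 9 Wnt pathway genes and of Hic1, with no hedgehog gene. Of the 18 tested intervals near 8 of them, 13 were higher in neurons, against 21.2% of all tested intervals. The other 5 did not pass the test, and the median of the 18 was 2.04. Of the 13, 6 lay near Hic1, a zinc finger repressor counted in this list, and had log2 fold changes of 2.56 to 3.56. The median of 2.04 thus rests in part on this 1 locus. The interval at the Hic1 start, chr11:74980722-74981570, held 24.8 ± 3.73 against 2.70 ± 0.73 CPM (log2 fold change 3.19). The most strongly read of the 6, chr11:74978836-74979938, held 48.0 ± 4.91 CPM in neurons and 5.18 ± 1.57 in non-neurons (SD, n = 5 each). At chr11:74980413-74980722, which lies 932 bp from the Hic1 start, neurons had 3.91, 3.24, 4.79, 4.92 and 4.16 CPM and non-neurons 0.42, 0.42, 0.49, 0.28 and 0.12 CPM, far apart (log2 fold change 3.56 with SE 0.36, adjusted p = 9.32e-10 by edgeR).

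The receptor gene Fzd9 had the most strongly read interval of the list. At chr5:135729398-135730353, 2481 bp from its start, neurons held 106, 97.6, 92.0, 104 and 93.1 CPM. Non-neurons held 8.89, 5.59, 10.1, 8.99 and 10.6 CPM, about an order of magnitude lower (log2 fold change 3.46 with SE 0.13, adjusted p = 8.58e-20 by edgeR). An interval at the Fzd9 start, chr5:135725243-135726950, had 3.08 ± 0.63 against 0.72 ± 0.24 CPM (log2 fold change 2.09). Near Axin2, which restrains Wnt signalling and is itself induced by it, chr11:108778825-108779300 and chr11:108779300-108779504 were higher by 3.42 and 1.88 on the log2 scale. The 2 Axin2 intervals closer to its start did not pass the test (-0.15 and -0.61). Sfrp2, a secreted Wnt antagonist, had 2.98 ± 0.82 against 0.76 ± 0.66 CPM 1957 bp from its start (log2 fold change 1.98), and intervals near the ligand genes Wnt10b and Wnt5b were higher by 1.43 and 0.36, the former 2488 bp from the Wnt10b start. The interval at the Wnt10b start itself gave 0.78 and did not pass the test. Intervals near Wnt9b and Fzd5 gave 0.14 and 0.12 and did not pass the test.

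Among genes of neurons, both tested intervals at Dlg4, which encodes the postsynaptic scaffold PSD-95, were lower in neurons. The interval chr11:69830754-69831246 had 3.15, 2.19, 3.77, 3.94 and 2.14 CPM in neurons and 7.64, 9.09, 5.29, 6.23 and 7.02 CPM in non-neurons, without overlap (log2 fold change -1.22 with SE 0.22, adjusted p = 4e-05 by edgeR). The other, chr11:69831246-69832070, gave -1.18. Dlg4 was the 1 of 37 genes of neuronal identity and transmission that had tested intervals near a placed start. In the list of neuropeptides and feeding, 1 of 6 tested intervals was called. It lay at the start of Npy5r, a receptor of neuropeptide Y that promotes feeding, with 2.65, 2.28, 1.73, 1.53 and 2.93 CPM in neurons and 4.58, 4.33, 6.89, 4.29 and 3.86 CPM in non-neurons at chr8:69211590-69212135 (log2 fold change -1.12 with SE 0.25, adjusted p = 0.000673 by edgeR). Intervals near Cartpt, Pdyn and Hcrtr1, which encode the CART peptide, the dynorphin precursor and an orexin receptor, ranged from -0.41 to 0.06 and did not pass the test.

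Among transcription factors of the hypothalamus, intervals near Hmx3 and Vax1 were higher in neurons (2.64 and 0.88 on the log2 scale), that at Arnt2 was lower as given above, and 1 near Sim1 did not pass the test (0.66). Lhx2, a homeobox factor of tanycyte and forebrain development, had 7 tested intervals within 10 kb, 2 of them lower in neurons. One of these, chr2:38211651-38212028, held 8.23 ± 0.80 CPM in neurons and 22.0 ± 4.41 in non-neurons (SD, n = 5 each; log2 fold change -1.43), and its neighbour gave -1.33. Of 3 tested intervals in the Hox clusters the one at Hoxa2 was called. Of 4 near other patterning factors, 1 near Nkx6-1 was lower (-1.28). It was lost when some single libraries were left out, and its neuronal mean was 0.51 CPM.

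Near enzymes of DNA methylation, 2 of 3 tested intervals were called, against 36.3% of all tested intervals. The 2 adjoin, share 1 cut site and lie close to Tet3, which oxidises methylcytosine. They were lower in neurons, at 5.63 ± 1.01 against 15.4 ± 3.91 CPM in chr6:83389844-83390253 and 0.96 ± 0.40 against 3.52 ± 0.98 CPM in chr6:83390253-83390691 (SD, n = 5 each; log2 fold changes -1.47 and -1.89). The interval at Dnmt3a gave 0.36 and did not pass the test. In the list of cytoskeleton and axon genes, 2 adjoining intervals near the guidance ligand Slit2 were higher (2.67 and 1.54) and 1 at the receptor tyrosine kinase Ephb2 was lower (-0.94), of 7 tested. Of 5 intervals at imprinted genes, 1 at Grb10, a signalling adaptor, was lower (32.5 ± 6.91 against 47.7 ± 8.51 CPM, SD, n = 5 each; log2 fold change -0.57). A second Grb10 interval, chr11:11937843-11938626, held 3.39 against 2.11 CPM and did not pass the test (0.69 on the log2 scale, adjusted p = 0.0517 by edgeR). Intervals at Gnas and Slc38a4 were not called.

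The lists of glial and vascular genes held few placed starts. The astrocyte list was represented by Itpr2 and the keratin list by Krt8, both given above. The 1 tested interval at Cnp, an enzyme of myelin, gave -0.18 and did not pass the test. Tie1, a receptor of endothelial cells, had 1 interval called lower at its start (3.90 ± 0.95 against 5.75 ± 1.31 CPM; log2 fold change -0.55 with SE 0.22, adjusted p = 0.0492 by edgeR) and 2 called higher, 1 also at the start, 104 bp from it (0.43), and 1 at 2427 bp (0.55). The lower call at Tie1 was lost under 12 of the 23 other settings tried. The list of calcium and ion channels had 3 placed starts without a tested interval, and the protocadherin list had no placed start.

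Another set of 12 intervals higher in neurons was picked by fold change among those above the median level. The picks at gene starts had no such floor, so their read numbers cannot be compared with these. At chr3:104796839-104797566, which lies 32212 bp from the placed start of Wnt2b, neurons had 217, 173, 223, 214 and 215 CPM. Non-neurons had 10.3, 4.61, 6.28, 12.6 and 13.0 CPM (log2 fold change 4.46 with SE 0.18, adjusted p = 6.87e-15 by edgeR). The interval chr2:116802370-116803045 had 106 ± 13.2 against 4.66 ± 1.42 CPM, and chr11:116556139-116556741 had 92.9 ± 9.16 against 3.82 ± 0.82 CPM (SD, n = 5 each), differences of 22.3-fold and 23.8-fold. An interval 3525 bp from the start of Erf, an ETS family repressor, chr7:26031602-26032252, had 42.5 ± 3.71 against 1.63 ± 0.62 CPM. The other 8 intervals of this set, picked among well-read intervals by fold change, ranged from 4.66 to 5.21 on the log2 scale and include the one at Krt8.

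Of the 12 intervals picked in the same way on the lower side, log2 fold changes ran from -2.04 to -4.02. At chr2:105520789-105521638 neurons had 7.95, 6.22, 6.43, 10.1 and 7.76 CPM and non-neurons 71.1, 72.4, 94.1, 82.3 and 88.2 CPM (log2 fold change -3.42 with SE 0.13, adjusted p = 1.72e-19 by edgeR). At chr10:126695823-126696812 neurons had 13.5, 9.29, 11.6, 14.9 and 13.7 CPM and non-neurons 83.0, 78.6, 107, 86.3 and 102 CPM (log2 fold change -2.88 with SE 0.13, adjusted p = 2.97e-18 by edgeR). In both the lowest non-neuronal library lay several times above the highest neuronal one. One of the 12 intervals, chr11:94935913-94937091, lay within 10 kb of a placed start, 5401 bp from that of the integrin subunit Itga3, and held 5.69 ± 0.98 against 25.6 ± 2.93 CPM (SD, n = 5 each). The interval chr9:121313019-121313452, lower in neurons (7.04 ± 1.68 against 29.8 ± 5.49 CPM), lies 36943 bp from the Trak1 start, at which the interval named above was higher.

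Among intervals that differed at least 2-fold, the 5 with the most reads on each side were also named. The 5 with the highest level on the higher side had neuronal means of 379 to 431 CPM and log2 fold changes of 1.10 to 1.40. The 5 on the lower side had neuronal means of 132 to 181 CPM against non-neuronal means of 271 to 423 CPM, with log2 fold changes of -1.04 to -1.24. At chr6:86591203-86591804, for example, neurons held 431 ± 55.4 and non-neurons 175 ± 6.88 CPM, and at chr2:169286977-169287732 the values were 181 ± 19.4 and 423 ± 46.2 CPM (SD, n = 5 each).

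Direction varied with interval length. Among intervals of 100 to 200 bp, 5.09% were higher and 36.0% lower in neurons, and the median log2 fold change was -0.50. Among those of 800 to 1200 bp, 33.6% were higher and 13.7% lower, with a median of 0.08. At 2500 to 3000 bp, 7.56% were higher and 10.2% lower. The median length was 1027 bp among intervals at least 2-fold higher, 441 bp among those at least 2-fold lower and 1181 bp over all tested. After a correction for the length trend within each library, 51.3% of all calls and 81.2% of 2-fold calls were higher. Whether PCR or shearing had a part in the relation to length was not tested.

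**Figure D3:**
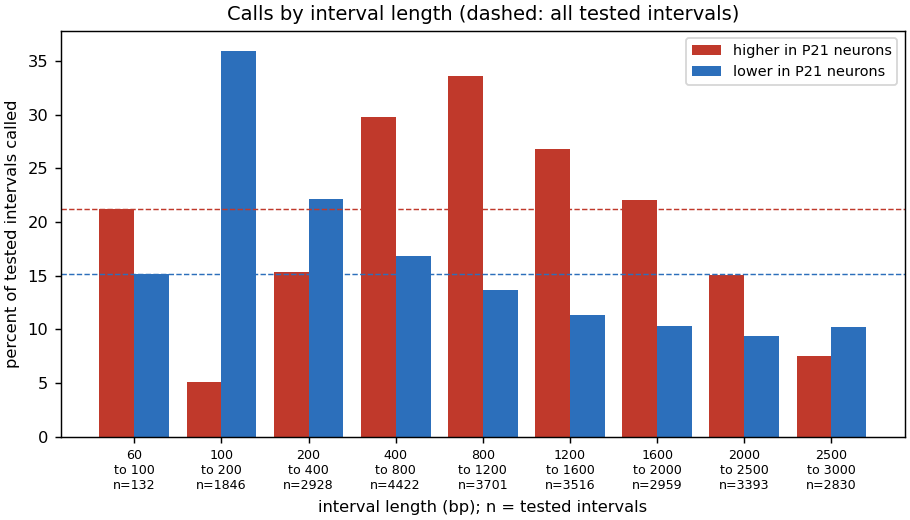
Percent of tested intervals called higher (red) and lower (blue) in P21 neurons for each class of interval length in bp, with the number tested under each class; dashed lines give the percent over all tested intervals, 21.2 and 15.2. Lower calls peak at 100 to 200 bp (36.0%) and higher calls at 800 to 1200 bp (33.6%).

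Read level and chromosome were also compared. Among the 6431 intervals with the fewest reads 12.2% were higher and 12.7% lower, and among the 6432 with the most reads 26.1% were higher and 17.8% lower. The 2-fold lower calls lay mostly at low levels, 433 of 732 among those with the fewest reads and 35 among those with the most. Of the 2-fold higher calls, 599 and 564 lay there. On the autosomes, 18.0% to 24.7% of intervals were higher and 12.3% to 17.6% lower. Chromosome X, which is present once in male cells, had 560 tested intervals, of which 10.7% were higher and 10.5% lower.

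Calls lay together along the chromosomes. Intervals that follow each other share 1 cut site, so their reads depend in part on the same methylated CCCGGG. Among 6897 such pairs, log2 fold changes correlated at r = 0.68, as a description over intervals that share a site and a library. Of the tested intervals that share a site with a called one, 55.8% were called in the same direction and 4.89% in the opposite direction. The same-direction share was 61.3% next to higher and 48.2% next to lower intervals. Where the next interval lay within 1 kb and shared no site, 41.9% were called in the same direction and 3.88% in the opposite one. At 1 to 10 kb the shares were 29.6% and 13.2%, and beyond 100 kb 17.2% and 15.8%.

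**Figure D4:**
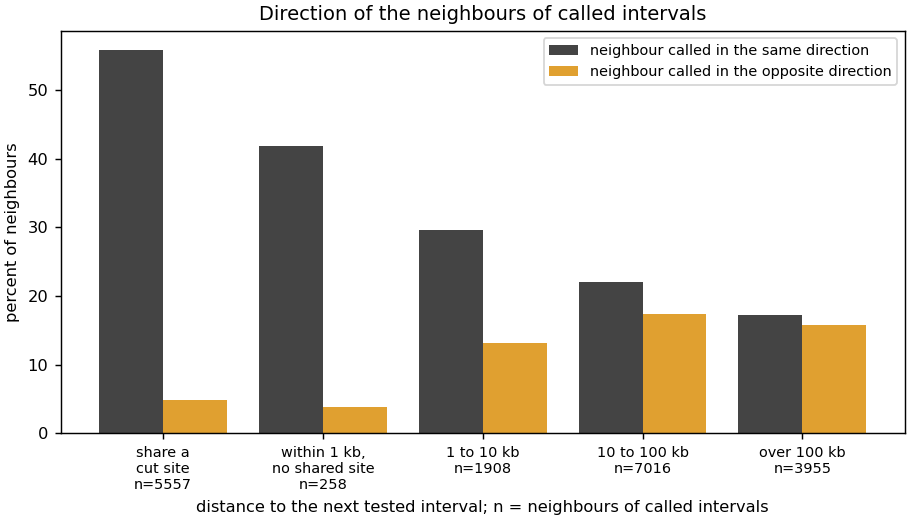
For tested intervals next to a called one, the percent called in the same (dark) and in the opposite (orange) direction, by distance, with the number of neighbours under each class. The same-direction share falls from 55.8% for intervals that share a cut site to 17.2% beyond 100 kb, where it is close to the opposite-direction share of 15.8%.

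Adjoining intervals called in one direction formed 149 runs of 3 or more higher in neurons, with 491 intervals, and 84 lower, with 270 intervals (55 lower without neuronal replicate 1). The run higher in neurons with the most intervals, 6, spanned 4364 bp at chr17:47604430-47608794, with log2 fold changes of 0.55 to 1.38. The largest of its differences was at chr17:47606027-47608111, with 8.20, 11.6, 6.32, 8.75 and 10.8 CPM in neurons and 4.17, 2.52, 3.32, 3.04 and 4.33 CPM in non-neurons. Of the runs of 5 intervals higher in neurons, the 2 with the largest mean log2 fold change (2.66 and 2.46) are given here. In chr11:97301515-97305915 the log2 fold change was 3.83 in the first interval and 0.88 in the last, and in chr13:34736572-34744860 it was 1.25 in the first and 3.80 in the last. The interval of the chromosome 11 run with the most reads, chr11:97302946-97304149, held 68.4, 64.7, 64.1, 68.0 and 64.4 CPM in neurons and 5.83, 9.51, 10.5, 8.16 and 7.83 CPM in non-neurons. In the chromosome 13 run the interval with the most reads, chr13:34743143-34743538, held 37.9 ± 1.97 against 3.22 ± 0.08 CPM (SD, n = 5 each).

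On the lower side 4 runs had 5 intervals, and the 3 with the largest mean difference are given. The run at chr6:58119434-58120791 packed 5 intervals into 1357 bp, with log2 fold changes of -0.83 to -1.35. Its interval chr6:58119839-58120186 had 12.7, 9.20, 10.6, 12.1 and 10.1 CPM in neurons and 21.7, 20.7, 16.1, 20.5 and 18.7 CPM in non-neurons, without overlap. With the length trend removed, the run's last interval, chr6:58120618-58120791, gave -0.59 and lost its call (adjusted p = 0.0556 by edgeR). Of all tested intervals of 100 to 200 bp, 36.0% were called lower. In chr3:93084720-93088456 all 5 intervals lay between -0.50 and -0.55. Neuronal replicate 2 was the lowest library of every interval there, and at its most strongly read interval, chr3:93086959-93087697, the groups overlapped (139, 96.9, 170.0, 134 and 135 CPM against 207, 154, 213, 192 and 217 CPM). The run at chr4:141181215-141187000 had log2 fold changes of -0.29 to -0.51, and 4 of its 5 intervals lost their call under an adjusted p of 0.01. With the length trend removed, its interval chr4:141185989-141186210 gave -0.11 and lost its call. No placed start lay within 10 kb of these 6 runs.

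**Figure D5:**
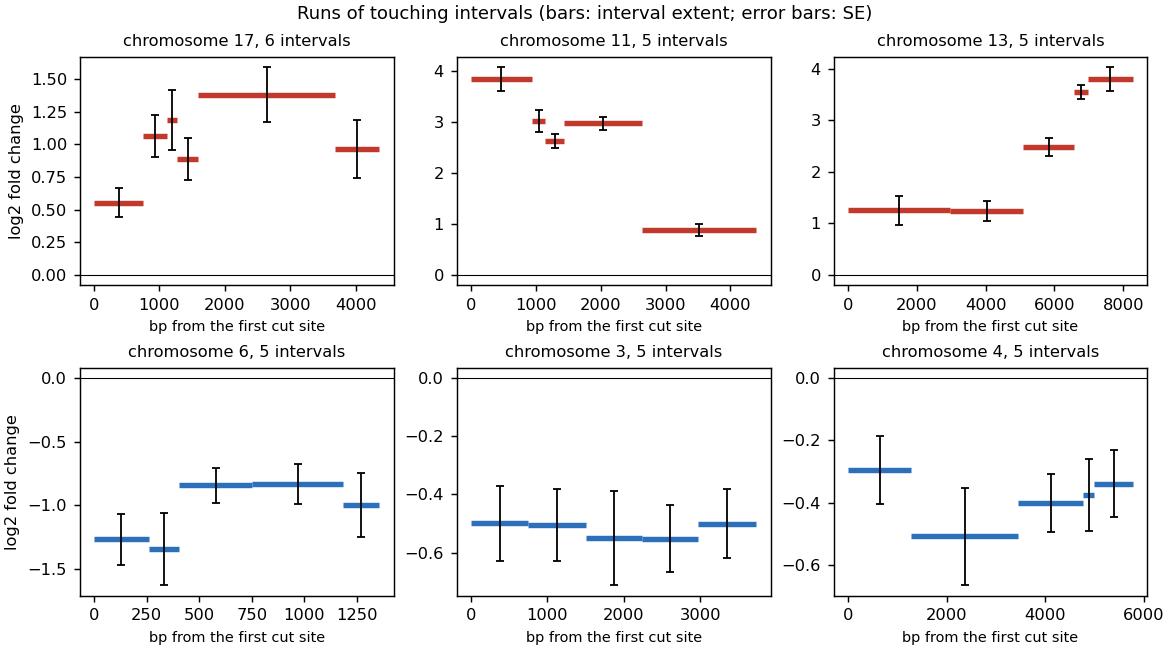
Log2 fold change, neurons minus non-neurons at P21, of each interval in the 3 runs with the most touching intervals higher in neurons (red) and the 3 lower (blue), ties broken by the largest mean difference, against the distance in bp from the run's first cut site; horizontal bars span each interval and error bars are 1 SE. The chromosome 11 run goes from 3.83 to 0.88, the chromosome 13 run from 1.25 to 3.80, and the chromosome 3 run stays between -0.50 and -0.55.

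The same intervals were read in the P0 libraries, as values without a test. The 2602 intervals at least 2-fold higher in P21 neurons had a median of 16.8 CPM in neurons and 4.87 CPM in non-neurons at P21, and of 7.39 and 5.40 CPM at P0. All 5 P0 neuronal libraries stood above all 5 P0 non-neuronal ones at 33.1% of them, against 6.79% of all tested intervals. They stood below at 2.08%, against 2.74% of all tested, and the groups overlapped at 64.9%. The 732 intervals at least 2-fold lower had medians of 1.60 and 4.47 CPM at P21 and 2.89 and 4.15 CPM at P0, and all 5 P0 neuronal libraries stood below all 5 non-neuronal ones at 19.7% of them, against 2.74% of all tested intervals. The P0 neuronal libraries all stood above at 0.41%, against 6.79% of all tested. The P0 groups overlapped at 79.9%, against 90.5% of all tested.

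At single genes the P0 values took several forms. Krt8 held 0.49 ± 0.27 CPM in neurons and 0.24 ± 0.13 CPM in non-neurons at birth, and Bmp4 held 1.36 ± 0.69 and 1.39 ± 1.37 CPM, beside 1.11 ± 0.38 and 1.58 ± 0.43 CPM in P21 non-neurons. Papln (10.3 ± 1.35 against 1.12 ± 0.64 CPM) and Phyhd1 (18.4 ± 1.35 against 4.79 ± 0.92 CPM) were already fully separated at P0 in the direction seen at P21. Hoxa2 was as well, on the lower side (0.52 ± 0.60 against 3.28 ± 1.44 CPM). Arnt2 (3.10 ± 1.09 against 4.12 ± 2.69 CPM), Nyap1 and Dlg4 had overlapping P0 groups. Near Tet3, P0 neurons and non-neurons held 37.1 ± 3.27 and 26.4 ± 3.12 CPM at the first interval named above, both more than either P21 group. The neuronal mean was thus the higher one at P0 and the lower one at P21 (5.63 against 15.4 CPM). The interval on the side of Wnt2b, chr3:104796839-104797566, was separated at both ages, with 194 ± 21.5 against 24.4 ± 3.65 CPM at P0 (SD, n = 5 each throughout).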

How the data were processed

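MSA-seq was read in 20 libraries, and the authors deposited 1 table of raw read counts for 50782 SmaI/XmaI intervals of 60 to 3000 bp (a count table by its values, all whole). The tools named in the submitters' processing notes are Bowtie 0.12.9, cutadapt and FastQC 0.10.1, with the build mm9. The rule for assigning reads to intervals is not stated in those notes or in the labels. Columns were matched to libraries by age, cell type letter and replicate number.

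The 10 P21 libraries were filtered with filterByExpr (edgeR 4.0.16, minimum count 10, total 15), scaled by TMM, fitted with 1 mean per group (glmQLFit, robust) and tested with glmQLFTest in R 4.3.3. The adjusted p is that of Benjamini and Hochberg over the 25727 tested intervals, with a threshold of 0.05. The biological coefficient of variation was 13.8%. The fitting code was tested on simulated data. Positive log2 fold changes mean more reads in neurons. Totals ran from 6078113 to 9998110 reads per P21 library, and amplified reads without molecular identifiers are not independent molecules.

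RefSeq promoters (GRCm38.p6, 32851 sequences of 300 bases, none on chromosome 18) were searched for CCCGGG, and the spacing of their sites was laid on that of the 84525 cut sites of the table. A block was accepted when 5 or more sites shared one shift, and every site needed 2 of its nearest 4 matched neighbours at that shift. This matched 3610 of 4909 sites (73.5%) in 152 blocks of up to 129 sites, outside which at most 4 sites agreed. No coordinate was converted between builds. Gene bodies and other promoters are not analysed here.

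Intervals were named by rule: the 12 largest fold changes in each direction among called, fully separated intervals above the median level, the 5 most strongly read with at least a 2-fold change, the 3 runs with the most intervals (ties by mean difference) and up to 4 genes per list. The 15 largest at placed starts were added after the values had been seen. One interval of this set is not reported here. The comparison, the lists and the rules were chosen with earlier results of these data known. Replicate numbers are not said to pair the sorts, and deviations of same-numbered libraries correlated at -0.0056, 0.344, 0.048, 0.116 and 0.022, so no pairs were formed. Alternatives were other scalings, filters and thresholds, DESeq2 1.42.0, limma-voom (limma 3.58.1), all 20 libraries, a replicate block, removal of a length trend (lowess, span 0.2), thinning to the smallest library and leaving out each library. Plots used matplotlib 3.10.9.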

Additional observations from a re-analysis of the deposited data

Results flagged for a closer look

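In 18 of the 218 groups of 5 libraries behind the named intervals, the highest or lowest library stood apart from the other 4 by more than 0.71 of the group's range. Chance alone flags about 1 in 20 groups. Replicate 2 accounted for 5 of these cases on each side, and the intervals share libraries, so the cases are not independent.

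Neuronal replicate 2 was low at chr11:116556139-116556741 (76.9 CPM), chr3:104796839-104797566 (173 CPM), the Phyhd1 start (71.5 CPM), chr7:106465077-106465500 (123 CPM) and chr2:169286977-169287732 (147 CPM). Neuronal replicate 5 was low at chr13:34743538-34744860 (10.2 CPM). Non-neuronal replicate 2 was high at chr13:34743143-34743538 (3.35 CPM), chr17:47608111-47608794 (4.05 CPM) and the Osbp2 start (8.39 CPM), and low at chr8:24781024-24781557 (258 CPM) and chr7:106465077-106465500 (291 CPM). At the last interval both cell types thus had their replicate 2 low.

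Non-neuronal replicate 1 was high at chr17:47605703-47606027 (8.19 CPM) and near Vax1 (6.53 CPM). Non-neuronal replicate 3 was high at chr2:60391023-60391681 (3.45 CPM) and at the Npy5r start (6.89 CPM), and low at chr13:34741662-34743143 (2.95 CPM). Non-neuronal replicate 4 was high at the Bmp4 start (2.35 CPM), and non-neuronal replicate 5 was low at the Hoxa2 start (3.04 CPM). All of these intervals kept their direction without the library concerned.

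The interval chr5:135729398-135730353, 2481 bp from the Fzd9 start, had every neuronal library above every non-neuronal one at P21 (log2 fold change 3.46) and every one below at P0 (2.27 ± 0.88 against 9.07 ± 3.22 CPM, SD, n = 5 each). The difference between the ages was not tested here. Only named intervals were searched for such a reversal. Of the 2602 intervals at least 2-fold higher at P21, 54 were separated in the opposite direction at P0 (2.08%, against 2.74% of all tested intervals).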

How the results depend on the processing

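None of the 9351 calls was called in the opposite direction under the 23 other settings, and 86.5% to 99.4% of them remained called in all settings other than an adjusted p under 0.01, which kept 70.1%. Of the 109 named intervals none changed direction, and the call was lost in 36 recomputed values and kept in 2458, with the losses at 7 intervals. An interval left untested by a setting has no value there, so not every named interval was read under all 23. The share of calls higher in neurons (58.3%) was 56.6% with DESeq2, 56.7% with RLE factors, 47.0% with library totals, 33.0% with upper-quartile factors, 61.2% without the filter, 56.5% with at least 20 reads in 5 libraries, 68.3% at an adjusted p under 0.01, 51.3% with the length trend removed, 59.5% without both libraries numbered 2 (added after seeing the data) and 58.8% to 62.0% with single libraries left out. Lower calls (3900) numbered 2080 at an adjusted p under 0.01 and 8641 with upper-quartile factors, and 2-fold lower calls (732) numbered 483 with at least 20 reads, 1214 without the filter and 1266 with upper-quartile factors. Touching intervals called in the same direction (55.8%) made up 54.1% at an adjusted p under 0.01, 57.7% with at least 20 reads, 54.4% with the length trend removed, 49.9% without the filter, 60.5% with upper-quartile factors, 53.7% to 56.7% with single libraries left out, and 31.0% for neighbours within 10 kb that share no site. Runs lower in neurons (84) numbered 37 at an adjusted p under 0.01, 131 with library totals, 244 with upper-quartile factors, and 55 (without neuronal replicate 1) to 77 with single libraries left out. With a replicate block 10993 intervals were called, 99.4% of the main calls among them, 54.5% of calls were higher and 57.2% of touching intervals agreed in direction. The libraries of 2 of 5 numbers correlated best with their own number, which is too few to tell whether the sorts were paired. The causes of these shifts were not tested. Groups near 0 rest on few reads, such as 8 at the Itpr2 start, and sizes of difference there are imprecise.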
